A study of Homo sapiens with 6 samples.

Results

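The genes of glucose breakdown were followed in K562 cells with and without induced PCBP1. The set held 34 genes, chosen by name for glucose transport, glycolysis, lactate production and export, and the pentose phosphate pathway, of 62252 annotated genes in the data. K562 is an erythroid leukemia cell line. PCBP1 (poly C binding protein 1) is an RNA-binding protein that recognizes C-rich RNA and also carries iron to iron-dependent enzymes. The cells came from a K562flox parent that was a single clone. By recombination this clone received a cassette that encodes puromycin resistance and, from a promoter switched on by tetracyclines, PCBP1 with a Flag tag. The resulting line was kept as a puromycin-selected pool. Both groups carried this cassette, and doxycycline (Dox) was absent in the −Dox group (n = 3 libraries) and present in the +Dox group (n = 3 libraries), so that Dox itself and Flag-PCBP1 cannot be told apart here. Poly(A) RNA was sequenced from each library, and the totals of estimated counts lay between 70905656 and 84177316. The labels do not say that the libraries came from separate cultures, so the p-values measure the spread between these samples, which may be technical.

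Glycolysis splits a molecule of glucose into pyruvate in the cytosol and yields ATP and NADH without oxygen. Lactate dehydrogenase turns pyruvate into lactate and regenerates the NAD+ that the pathway consumes, and monocarboxylate transporters carry the lactate out. The pentose phosphate pathway branches from the same sugar phosphates, makes NADPH in its oxidative arm and rearranges sugars into ribose 5-phosphate for nucleotides in its non-oxidative arm. Red cells and their precursors rely heavily on both pathways. Many glycolytic steps can be run by several isozymes from separate genes, and the isozyme in use differs between tissues.

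The inducible gene was checked first. The annotated PCBP1 gene (chr2:70087477-70089203, plus strand, GRCh38) was at 156, 158 and 163 TPM (transcript abundance scaled for length and for the library total) in the −Dox libraries and at 596, 582 and 600.4 TPM in the +Dox libraries, and reads from the endogenous gene and from the cassette were not separated. Its log2 fold change, +Dox over −Dox, was 1.94 ± 0.06 (SE), with an adjusted p of 5.22e-10 in edgeR's quasi-likelihood test over all 21045 genes with a mean count above 10. All 10 K562 markers examined were above 1 TPM in every library. These markers moved in both directions. In TPM, 4 of the 10 were higher and 5 lower in every +Dox library than in any −Dox library. The erythroid transcription factor KLF1 was at 48.1 to 53.3 TPM in −Dox and at 66.8 to 70.94 TPM in +Dox, TAL1 at 12.1 to 14.8 and 16.6 to 17.3 TPM, and GATA1 at 121 to 127.5 and 129 to 132 TPM. The transferrin receptor gene TFRC was at 183.5 to 192 TPM in −Dox and at 133 to 155.5 TPM in +Dox, and LMO2 at 67.6 to 70.94 and 56.1 to 57.7 TPM. The part of these markers in the results below was not tested. Of 16 markers of other cell types, 5 were above 1 TPM in every library, among them CD3D, LYZ, EPCAM and KRT19, and 2 were at 0 in all libraries (MS4A1 and MYH2). The most abundant of them was LYZ, at up to 131 TPM. Their summed level was 243, 260 and 290 TPM in −Dox and 206, 200.3 and 240.1 TPM in +Dox, and its part in the results was not tested.

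Most of the glycolytic genes that changed were lower after induction, while glucose transporter 1 and the minor enolases were higher. Of the 34 genes, 33 were tested, and 13 of them (39.4%) passed an adjusted p of 0.05, against 15.8% of all genes tested. Of these, 3 genes rose (9.09%), SLC2A1, ENO2 and ENO3, a share near the 8.16% of all genes that rose. The other 10 genes fell (30.3%), SLC2A3, HK2, PFKM, PFKP, PGK1, ENO1, PKM, LDHA, SLC16A1 and RPIA, where 7.68% of all genes fell. A single gene, SLC2A3, was also past an absolute log2 fold change of 1, a limit that 1.46% of all genes passed together with the adjusted p. It lay just past this limit and was inside it without −Dox replicate 3 (log2 fold change −0.97), +Dox replicate 1 (−0.94) or +Dox replicate 2 (−0.99). In 17 of the 33 genes (51.5%) normalized counts did not overlap between −Dox and +Dox, 5 of them higher and 12 lower in +Dox, against 33.2% of all genes. The median log2 fold change was −0.11 over the 33 genes and 0.01 over all genes tested, and 24 of the 33 values were negative. Summed over the 34 genes, the level was 7393, 7469 and 7639 TPM in −Dox and 6425, 6519 and 6808 TPM in +Dox, so that every +Dox library was below every −Dox library.

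**Figure D1:**
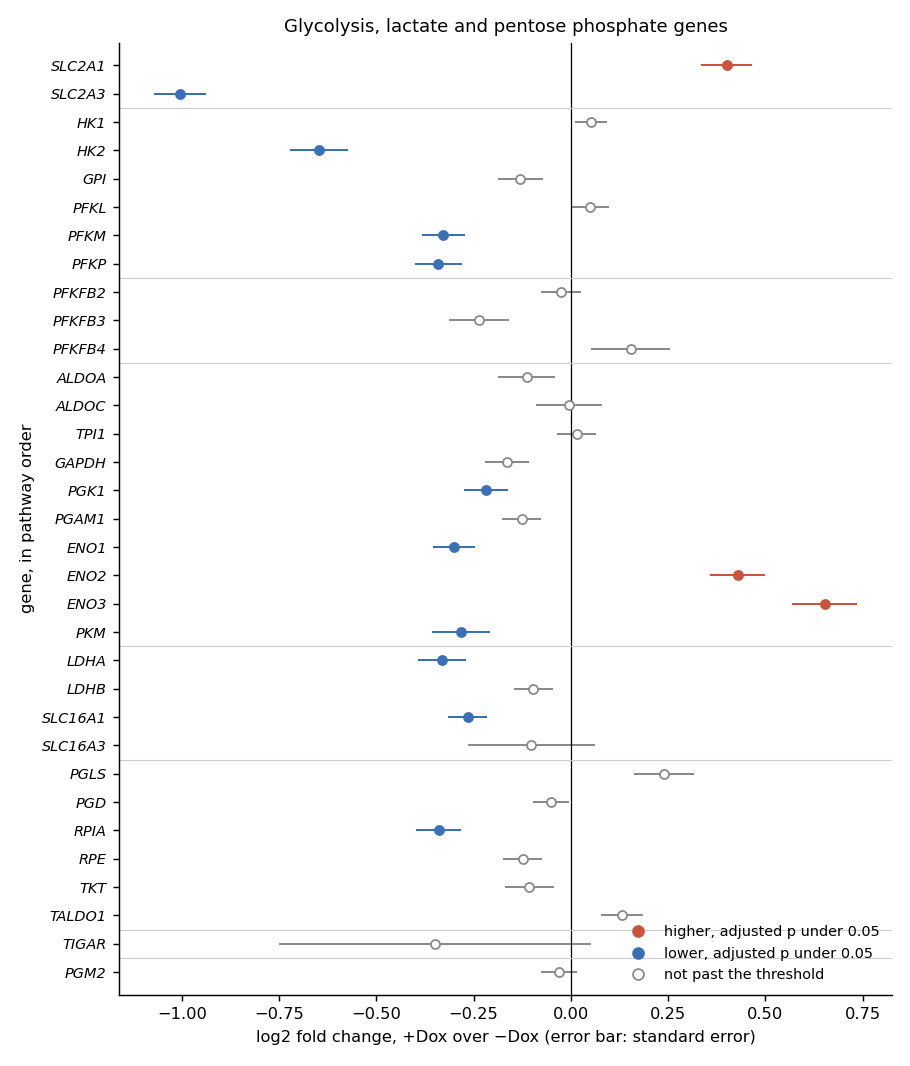
Log2 fold change of estimated counts, +Dox over −Dox, for the 33 tested genes in pathway order from top to bottom, with standard errors as bars (n = 3 libraries per group). Red points are the 3 genes that rose, blue points the 10 that fell and open points the 20 that did not pass an adjusted p of 0.05; SLC2A3 stands farthest from 0.

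Glucose enters K562 cells through facilitative transporters, and the balance between the main pair of them shifted. SLC2A3 (GLUT3, a high-affinity transporter best known from neurons; chr12:7919230-8019007, minus strand) was at 81.6, 75.9 and 84.6 TPM in −Dox and at 33.96, 39.2 and 40.5 TPM in +Dox. Its log2 fold change was −1.0 ± 0.07 (SE, adjusted p = 1.04e-06), the 34th smallest p among all genes tested. SLC2A1 (GLUT1, the transporter of red cells and of the blood-brain barrier; chr1:42925353-42958893, minus strand) was at 35.2, 36.9 and 34.1 TPM in −Dox and at 47.9, 42.8 and 41.0 TPM in +Dox, a log2 fold change of 0.40 ± 0.07 (adjusted p = 0.00129). The groups did not overlap for either gene. SLC2A3 thus held 69.5% ± 2.03 (SD, n = 3) of the summed level of both transporters in −Dox and 46.3% ± 4.31 in +Dox. In +Dox SLC2A1 lay above SLC2A3 in TPM in every library, at 47.9 against 33.96, 42.8 against 39.2 and 41.0 against 40.5. This order holds for TPM summed over all transcripts of a gene and not for reads, since SLC2A3 had 8986, 11567 and 12581 counts in +Dox and SLC2A1 4945, 5793 and 5504. In single transcripts SLC2A3-201, at 33.3 TPM, also stayed above every SLC2A1 transcript with at least 5% of the gene, none of which exceeded a mean of 10.3 TPM in +Dox. The summed level of both fell from 116 ± 3.0 to 81.8 ± 0.265 TPM. SLC2A1 missed the threshold when its TPM values were tested in place of counts (largest adjusted p = 0.0570). SLC2A3 passed an adjusted p of 0.05 in every alternative run, as did HK2, PFKP, ENO1, ENO2, ENO3, LDHA, SLC16A1 and RPIA below. SLC2A14, a near copy of SLC2A3, and pseudogenes named after SLC2A3 held 0.668% of the reads of gene and copies together. This was the highest such share among the listed genes with copies, which were picked by name.

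**Figure D2:**
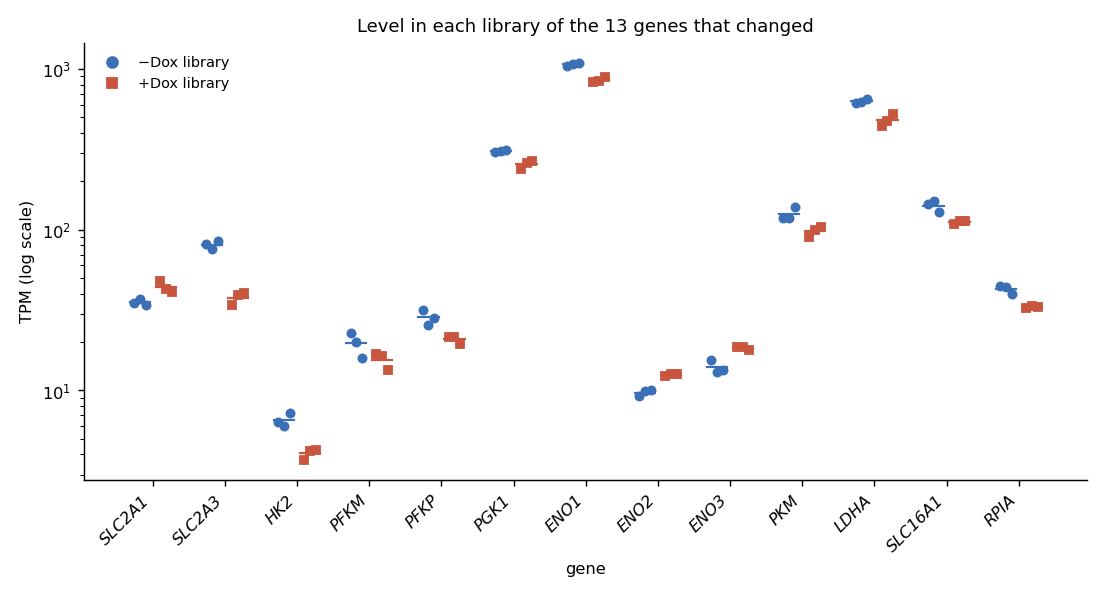
TPM on a log scale in each library for the 13 genes that passed an adjusted p of 0.05, with −Dox libraries as blue circles, +Dox libraries as red squares and group means as lines. PFKM is the gene whose groups overlapped in TPM, with 16.0 in the lowest −Dox library and 16.8 in the highest +Dox library.

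Hexokinases trap glucose in the cell by phosphorylating it. HK1, the housekeeping isozyme, was by far the more abundant and was at 93.7 to 99.0 TPM in −Dox and at 96.6 to 101 TPM in +Dox (log2 fold change 0.05 ± 0.04, adjusted p = 0.469). HK2, the inducible isozyme of muscle and of many tumors (chr2:74834127-74893359, plus strand), was at 6.36, 6.02 and 7.23 TPM in −Dox and at 3.68, 4.23 and 4.28 TPM in +Dox. The highest HK2 level in +Dox thus lay under the lowest in −Dox, and its log2 fold change was −0.65 ± 0.07 (adjusted p = 9.82e-05). The HK2 share of hexokinase mRNA was 6.31% ± 0.471 in −Dox and 3.97% ± 0.300 in +Dox (SD, n = 3), and the sum of both isozymes moved from 103.5 to 102.3 TPM, less than the spread between libraries. GPI, which converts glucose 6-phosphate to fructose 6-phosphate, had a log2 fold change of −0.13 ± 0.06 that did not pass the test (adjusted p = 0.156). Without −Dox replicate 1 it passed the same test (log2 fold change −0.18, adjusted p = 0.0342). Without −Dox replicate 3 its log2 fold change was −0.075.

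Phosphofructokinase makes the committed step of glycolysis from muscle (PFKM), liver (PFKL) and platelet (PFKP) subunits. PFKP (chr10:3066333-3137718, plus strand) was at 31.8, 25.5 and 28.1 TPM in −Dox and at 21.5, 21.4 and 19.6 TPM in +Dox (log2 fold change −0.34 ± 0.06, adjusted p = 0.00236). PFKM (chr12:48105139-48146404, plus strand) was at 23.0, 19.9 and 16.0 TPM in −Dox and at 16.8, 16.4 and 13.3 TPM in +Dox (log2 fold change −0.33 ± 0.05, adjusted p = 0.00143). PFKP libraries did not overlap between the groups; PFKM libraries did not overlap in normalized counts but did in TPM. PFKM missed the threshold when counts were corrected for transcript length or when TPM were tested (largest adjusted p = 0.291). It shares 7.12% of its exon bases with SENP1 on the opposite strand, which had more reads, and whether the counting used strand is not known. PFKL was between 22.7 and 25.0 TPM in all libraries (log2 fold change 0.05 ± 0.05, adjusted p = 0.565), and its share of the 3 subunits was 33.6% ± 2.49 in −Dox and 39.6% ± 1.37 in +Dox.

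The level of fructose 2,6-bisphosphate, the strongest activator of phosphofructokinase, is set by the bifunctional PFKFB enzymes and lowered by the phosphatase TIGAR. None of these 4 genes passed the test. PFKFB3, the isozyme with the highest kinase activity, was at 4.13, 3.86 and 4.73 TPM in −Dox and at 3.47, 3.60 and 3.06 TPM in +Dox without overlap (log2 fold change −0.24 ± 0.08, adjusted p = 0.0558), and DESeq2 gave an adjusted p of 0.0310. The log2 fold change was 0.15 ± 0.10 for PFKFB4 (adjusted p = 0.362) and for PFKFB2 −0.03 ± 0.05 (adjusted p = 0.812). TIGAR was barely detected, with 25 to 53 estimated counts per library.

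Further down the pathway, aldolase and triosephosphate isomerase genes did not pass the test, while PGK1, ENO1 and PKM fell. ALDOA, the main aldolase, was at 581 to 664 TPM in −Dox and at 536 to 595 TPM in +Dox (log2 fold change −0.11 ± 0.07, adjusted p = 0.346). ALDOC, the brain isozyme, and TPI1, triosephosphate isomerase, had log2 fold changes of −0.0044 ± 0.09 and 0.01 ± 0.05, with adjusted p of 0.981 and 0.896. GAPDH, which makes the NADH of glycolysis and is widely used as a reference gene, was at 1703, 1746 and 1771 TPM in −Dox and at 1490, 1511 and 1597 TPM in +Dox. All +Dox libraries were thus lower in TPM, yet the log2 fold change of counts, −0.16 ± 0.06, did not pass the test (adjusted p = 0.0690), while it did with DESeq2 (adjusted p = 0.0156).

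PGK1 makes the first ATP of glycolysis (chrX:77910739-78129295, plus strand). It was at 305, 310 and 314 TPM in −Dox and at 239.6, 259.9 and 267 TPM in +Dox without overlap (log2 fold change −0.22 ± 0.06, adjusted p = 0.0198). This call was lost on leaving out −Dox replicate 2 or 3 or +Dox replicate 1 or 2 (adjusted p up to 0.0854). For PGAM1, phosphoglycerate mutase, the log2 fold change of −0.13 ± 0.05 did not pass the test (adjusted p = 0.117), while DESeq2 gave an adjusted p of 0.0483.

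Enolase, the step before pyruvate kinase, changed its composition. ENO1, the ubiquitous isozyme (chr1:8861000-8879190, minus strand), was at 1044, 1070.0 and 1097 TPM in −Dox and at 831, 838 and 888 TPM in +Dox (log2 fold change −0.30 ± 0.05, adjusted p = 0.00249). ENO2, the neuronal isozyme (chr12:6913745-6923698, plus strand), was at 9.22, 9.88 and 10.0 TPM in −Dox and at 12.2, 12.7 and 12.7 TPM in +Dox (log2 fold change 0.43 ± 0.07, adjusted p = 0.00129). ENO3, the muscle isozyme (chr17:4948092-4957131, plus strand), was at 15.4, 13.1 and 13.4 TPM in −Dox and at 18.7, 18.8 and 18.0 TPM in +Dox (log2 fold change of counts 0.65 ± 0.08, adjusted p = 0.000263). None of the 3 genes had overlapping groups. ENO1 still held 97.8% ± 0.123 of enolase mRNA in −Dox and 96.5% ± 0.149 in +Dox, and summed enolase mRNA was 1094 ± 26.3 TPM in −Dox and 883 ± 30.7 TPM in +Dox. The size of the ENO3 change depended on the scale, with log2 fold changes from 0.38 to 0.72 over the alternatives. On the opposite strand ENO3 shares 2.59% of its exon bases with PFN1, which had far more reads, so reads cannot be assigned with certainty there.

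**Figure D3:**
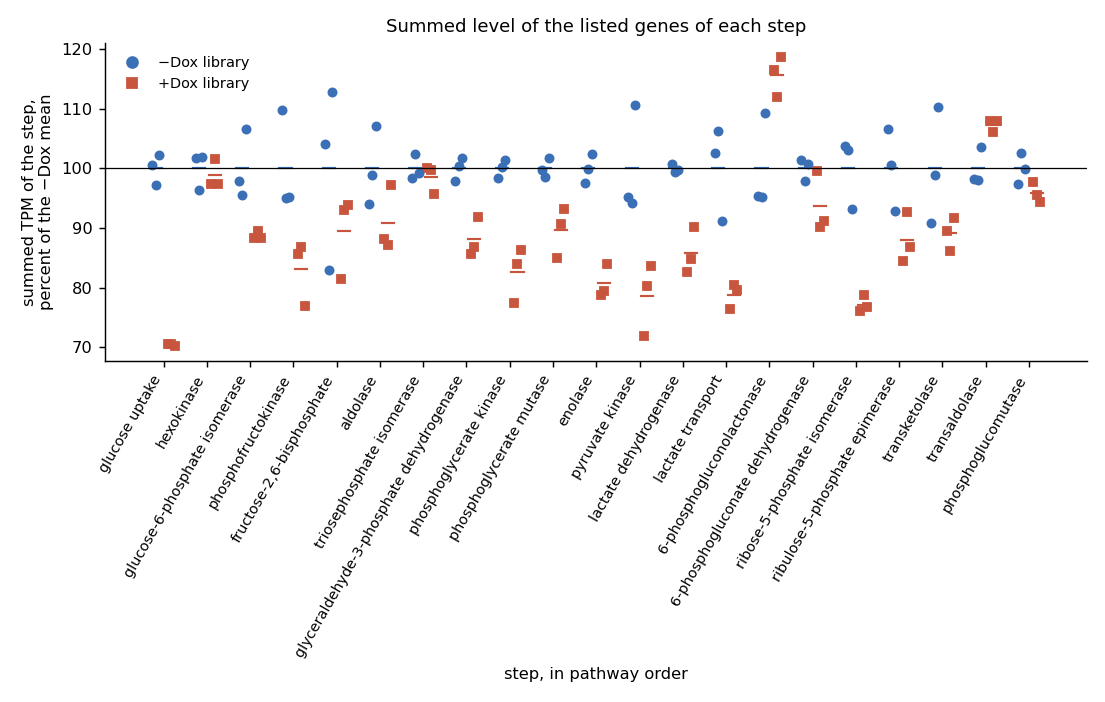
Summed TPM of the listed genes of each pathway step in each library, as percent of the −Dox mean, with −Dox libraries as blue circles, +Dox libraries as red squares and group means as short lines. Glucose uptake lies lowest, 29.5% below the −Dox mean, and 6-phosphogluconolactonase lies highest, 15.8% above it.

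Pyruvate kinase transfers the last phosphate of glycolysis to ADP. PKM (chr15:72199029-72231819, minus strand) was at 119, 118 and 138 TPM in −Dox and at 89.9, 100.2 and 104 TPM in +Dox, without overlap (log2 fold change −0.28 ± 0.07, adjusted p = 0.0210). The call was lost on leaving out −Dox replicate 3, +Dox replicate 1 or +Dox replicate 2 and when TPM were tested (largest adjusted p = 0.0962). PKM transcripts carry either the M1 or the M2 exon, which are mutually exclusive. The M2 form predominates in proliferating cells, and PKM is a textbook case of splicing control by RNA-binding proteins. The exons are printed here because they are what tells the forms apart. Both are 167 bases long and 62 aligned positions differ, shown in capitals, with sequences read 5′ to 3′ on the minus strand of GRCh38.
M1 exon, chr15:72203022-72203188: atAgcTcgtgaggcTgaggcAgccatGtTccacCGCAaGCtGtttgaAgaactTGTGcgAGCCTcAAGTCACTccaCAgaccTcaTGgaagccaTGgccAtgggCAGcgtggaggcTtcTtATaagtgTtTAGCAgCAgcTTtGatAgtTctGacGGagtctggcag
M2 exon, chr15:72202454-72202620: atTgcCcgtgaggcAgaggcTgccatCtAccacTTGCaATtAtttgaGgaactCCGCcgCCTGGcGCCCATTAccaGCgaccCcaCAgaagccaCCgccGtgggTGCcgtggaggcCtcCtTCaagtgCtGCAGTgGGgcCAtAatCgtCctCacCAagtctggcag

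Transcripts with the M2 exon summed to 93.45, 95.2 and 115.5 TPM in −Dox and to 78.0, 84.3 and 89.3 TPM in +Dox. Transcripts with the M1 exon were at 1.93, 1.52 and 1.57 TPM in −Dox and at 0.876, 0.821 and 0.892 TPM in +Dox. The M1 share of both was 1.65% ± 0.347 in −Dox and 1.02% ± 0.0774 in +Dox (SD, n = 3). The M1 share was lower in every +Dox library than in any −Dox library, and an exact two-sided permutation test gave p = 0.1, the smallest value that 3 against 3 libraries allow. Salmon infers these levels from all reads of a transcript, and the files hold no counts of reads across the exon junctions.

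**Figure D4:**
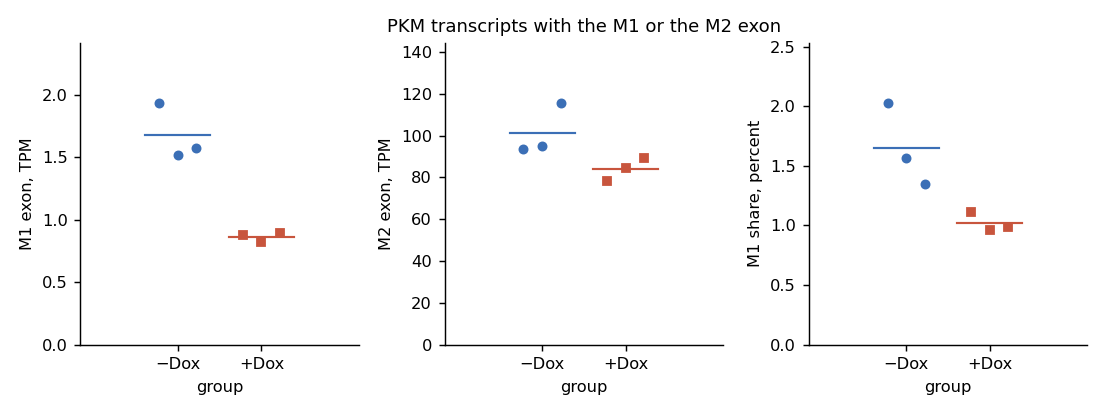
Summed TPM of PKM transcripts with the M1 exon (left) and with the M2 exon (middle), and the M1 share in percent (right), in each −Dox library (blue circles) and +Dox library (red squares) with group means as lines. The M1 share lies between 1.35% and 2.03% in −Dox and between 0.965% and 1.11% in +Dox.

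On the lactate side, LDHA and the transporter SLC16A1 fell. LDHA, the subunit that favors lactate formation (chr11:18394560-18408425, plus strand), was at 614, 625 and 653 TPM in −Dox and at 445, 478 and 522 TPM in +Dox (log2 fold change −0.33 ± 0.06, adjusted p = 0.00301). LDHB, the heart subunit, was the more abundant in all libraries, at 1021 to 1075 TPM in −Dox and at 941 to 989 TPM in +Dox (log2 fold change −0.10 ± 0.05, adjusted p = 0.244). LDHA held 37.6% ± 1.34 of both in −Dox and 33.4% ± 1.24 in +Dox. SLC16A1 (MCT1, the main lactate transporter of red cells; chr1:112911847-112957593, minus strand) was at 145, 150.6 and 129 TPM in −Dox and at 108, 114 and 113 TPM in +Dox (log2 fold change −0.27 ± 0.05, adjusted p = 0.00313). Groups overlapped for neither LDHA nor SLC16A1. SLC16A3 (MCT4, a transporter of highly glycolytic cells) was at 0.593 to 1.28 TPM over all libraries and did not pass the test (log2 fold change −0.10 ± 0.16, adjusted p = 0.749). It shares 5.22% of its exon bases with CSNK1D on the opposite strand.

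In the pentose phosphate pathway 1 of 6 tested genes passed (16.7%), a share near the 15.8% of all genes. RPIA, which makes ribose 5-phosphate (chr2:88691673-88750929, plus strand), was at 44.5, 44.2 and 40.0 TPM in −Dox and at 32.6, 33.8 and 32.9 TPM in +Dox without overlap (log2 fold change −0.34 ± 0.06, adjusted p = 0.00154). The oxidative-arm gene PGLS, the lactonase, was at 19.8, 19.8 and 22.7 TPM in −Dox and at 24.2, 23.3 and 24.6 TPM in +Dox, also without overlap, but just missed the threshold (log2 fold change 0.24 ± 0.08, adjusted p = 0.0521; DESeq2 adjusted p = 0.0350). For PGD, the NADPH-forming decarboxylase, the log2 fold change was −0.05 ± 0.05 (adjusted p = 0.526). RPE, the epimerase that acts on the same substrate as RPIA, stood at −0.12 ± 0.05 on the log2 scale (adjusted p = 0.119) and shares 23.8% of its exon bases with KANSL1L on the opposite strand. The non-oxidative enzymes TKT and TALDO1 had log2 fold changes of −0.11 ± 0.06 and 0.13 ± 0.05, with adjusted p of 0.303 and 0.123. For phosphoglucomutase, which links glycogen to glycolysis, PGM2 was at 43.0 to 46.8 TPM (log2 fold change −0.03 ± 0.05, adjusted p = 0.733), and PGM1 was under the count limit with 0 to 3 counts per library and was not tested.

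The balance between isozymes was expressed as a ratio of TPM for 12 pairs, of which 11 could be computed. A ratio combines the changes of its genes given above and adds no independent evidence to them. In 6 pairs the libraries of the groups did not overlap, and each of these had an exact two-sided permutation p of 0.1, the smallest possible, and an adjusted p of 0.183 over the 11 pairs. The SLC2A3 to SLC2A1 ratio in +Dox was 0.379 times that in −Dox, HK2 to HK1 0.614 times and PFKP to PFKL 0.749 times. The ENO2 to ENO1 ratio was 1.62 times higher, ENO3 to ENO1 1.67 times and LDHB to LDHA 1.2 times. Genes of the same pair share the library, so these ratios do not depend on library size. The ratios of PFKM to PFKL, PFKFB4 to PFKFB3, PFKFB2 to PFKFB3, ALDOC to ALDOA and SLC16A3 to SLC16A1 overlapped between groups (exact p from 0.2 to 0.5).

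**Figure D5:**
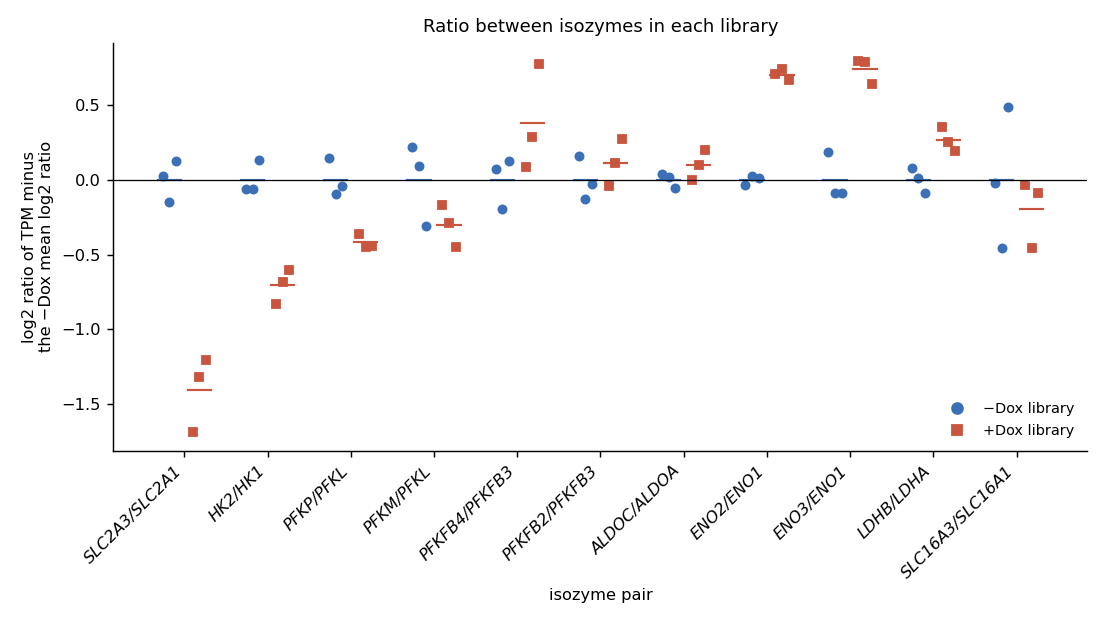
Log2 ratio of TPM within each isozyme pair, minus the −Dox mean of that pair, in −Dox libraries (blue circles) and +Dox libraries (red squares), with lines at the group means. The SLC2A3/SLC2A1 ratio lies lowest in +Dox, 1.40 below the −Dox mean, and ENO3/ENO1 highest, 0.74 above it.

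Few changes were detectable for single transcripts. Of 263 tested transcripts of these genes, 1 (0.38%) passed an adjusted p of 0.05 in edgeR, against 0.204% of all 86178 transcripts tested. It was SLC2A3-201, the main SLC2A3 transcript, at 67.9 ± 3.13 TPM in −Dox and 33.3 ± 3.24 TPM in +Dox (SD, n = 3, log2 fold change −0.96 ± 0.09, adjusted p = 0.0373). Leaving out any single library ended this call, and 2 to 4 of all transcripts passed then, against 176 with every library. Of the transcripts that made up at least 5% of their gene, 86 were tested for a change in usage with edgeR and 0 passed. Of all transcripts tested for usage, 0.709% passed. The smallest adjusted p was 0.102, for LDHA-206, at 19.6, 57.8 and 30.8 TPM in −Dox and 24.9, 3.70 and 7.53 TPM in +Dox. The libraries of each group spread widely for this transcript and overlapped between the groups. HK1 transcripts HK1-201 and HK1-202 held 34.6% and 59.1% of HK1 in −Dox and 37.0% and 56.5% in +Dox.

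Enzymes beside these steps were read from a further list. Of 42 genes of glucose metabolism, 25 were tested, and 5 rose and 2 fell. These 7 genes were 28.0% of those tested, against 15.8% of all genes. The risen ones were 20% of those tested, where 8.16% of all genes rose. The fallen ones were 8%, a share near the 7.68% of all genes that fell. PKLR, the red cell and liver pyruvate kinase, rose most, from 3.86, 4.16 and 3.81 TPM in −Dox to 6.51, 7.58 and 6.99 TPM in +Dox (log2 fold change 0.88 ± 0.07, adjusted p = 6.48e-06). BPGM, which makes the 2,3-bisphosphoglycerate that regulates hemoglobin, went from 19.7, 20.7 and 19.2 TPM to 28.6, 26.1 and 26.0 TPM (log2 fold change 0.48 ± 0.07, adjusted p = 0.000447). The groups overlapped for neither gene. BSG (basigin, the chaperone that brings monocarboxylate transporters to the membrane) was at 147, 153 and 166 TPM in −Dox and at 193, 196 and 192 TPM in +Dox (log2 fold change 0.35 ± 0.06). DERA, a deoxyribose-phosphate aldolase, was at 11.4, 11.2 and 12.3 TPM in −Dox and at 14.3, 14.7 and 14.6 TPM in +Dox (log2 fold change 0.33 ± 0.08). G6PC3, a ubiquitous glucose-6-phosphatase, was at 11.8, 11.6 and 12.8 TPM in −Dox and at 14.9, 16.3 and 15.3 TPM in +Dox (log2 fold change 0.36 ± 0.06). All 3 rose without overlap between the groups. MINPP1, an inositol phosphatase that also acts on 2,3-bisphosphoglycerate, fell from 23.4, 21.7 and 22.3 TPM to 16.9, 19.8 and 18.6 TPM (log2 fold change −0.23 ± 0.06). PRPS2, which makes phosphoribosyl pyrophosphate from ribose 5-phosphate, fell from 37.0, 37.0 and 35.5 TPM to 30.05, 31.8 and 29.6 TPM (log2 fold change −0.18 ± 0.05). The adjusted p of these 5 genes lay between 0.00151 and 0.0177. PRPS2 lost its call without −Dox replicate 2 and without either of +Dox replicates 2 and 3 (adjusted p up to 0.0831), and MINPP1 on leaving out +Dox replicate 1 or when TPM were tested (adjusted p up to 0.0820).

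Several of the listed genes, and not only those that fell, are known targets of the hypoxia-inducible factors. These factors bind a core of ACGTG or GCGTG. RefSeq promoters on GRCh38.p14 were therefore read for these letters on both strands in the 250 bases before each start, and 31 of the 34 genes matched, with no entry for SLC2A3, PFKFB2 and SLC16A1. A CACGTG counted on both strands. Of 59 start sites of the 31 genes, 31 (52.5%) held a core, against 43.2% of 34943 windows of the same length at all genes. Genes that fell held it at 10 of 19 starts (52.6%), genes that were tested and not called at 18 of 33 (54.5%) and genes that rose at 2 of 4. At least 2 cores stood at 6 of 19 starts (31.6%) of genes that fell and at 9 of 33 starts (27.3%) of genes not called, against 19.3% of all windows. Starts are not independent, since PFKM gave 7 of the 19 and HK1 7 of the 33, and some of their windows overlap. Without PFKM, 6 of 12 starts (50.0%) of genes that fell held at least 2 cores. No HK1 start held at least 2 cores, so leaving out HK1 would likewise raise the share for genes not called. Counted by gene, a core stood at any start of 7 of 8 genes that fell and of 13 of 19 genes not called, against 47.4% of all genes. At least 2 cores stood at a start of 5 of 8 and of 8 of 19, against 22.5% of all genes. Genes that fell had more starts per gene (2.38) than genes not called (1.74) and all genes (1.29). They thus had more windows in which a core could stand. For any core, the order of genes that fell and genes not called thus depends on the unit counted. At least 2 cores stood more often in genes that fell over all starts and by gene. Over starts this order rests on HK1. Without its 7 starts alone, the share of genes not called would lie above that of genes that fell. No test was made, and genes not called also held several cores, with 5 in ALDOC and 4 in PGM2. Among genes that fell, PKM held 0 cores, RPIA 1 and PFKM at most 1 at any start, while PFKP held up to 3. As examples from genes that fell with at least 2 cores, a window each of HK2, PGK1, ENO1 and LDHA is shown. They are read 5′ to 3′ in the direction of the gene, with the cores in capitals.
HK2, chr2:74833877-74834126, plus strand: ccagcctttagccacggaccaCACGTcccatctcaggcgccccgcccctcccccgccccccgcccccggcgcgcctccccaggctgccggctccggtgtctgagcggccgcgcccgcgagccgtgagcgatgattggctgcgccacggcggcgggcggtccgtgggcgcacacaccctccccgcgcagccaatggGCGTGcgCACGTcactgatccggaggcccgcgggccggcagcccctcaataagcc
PGK1, chrX:78103998-78104247, plus strand: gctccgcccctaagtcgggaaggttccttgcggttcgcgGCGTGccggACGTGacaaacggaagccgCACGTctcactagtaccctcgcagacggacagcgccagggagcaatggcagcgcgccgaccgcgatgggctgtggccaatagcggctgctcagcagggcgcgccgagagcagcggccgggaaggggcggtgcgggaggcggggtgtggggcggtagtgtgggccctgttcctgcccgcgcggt
ENO1, chr1:8878687-8878936, minus strand: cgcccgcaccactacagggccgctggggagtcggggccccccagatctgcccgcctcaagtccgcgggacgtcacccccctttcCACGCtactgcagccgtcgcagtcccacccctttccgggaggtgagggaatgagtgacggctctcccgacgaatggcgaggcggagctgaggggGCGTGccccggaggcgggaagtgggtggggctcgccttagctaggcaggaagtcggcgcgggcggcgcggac
LDHA, chr11:18394313-18394562, plus strand: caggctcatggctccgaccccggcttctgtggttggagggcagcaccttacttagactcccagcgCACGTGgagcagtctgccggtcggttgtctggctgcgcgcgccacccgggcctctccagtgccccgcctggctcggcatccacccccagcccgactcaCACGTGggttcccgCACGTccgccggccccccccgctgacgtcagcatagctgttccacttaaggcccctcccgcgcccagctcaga

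These windows hold 3 cores for HK2 and PGK1, 2 for ENO1 and 5 for LDHA, and the other HK2 start, not shown, holds 6. A match of 5 letters is a description of the sequence and no measure of binding.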

How the data were processed

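mRNA was measured in 6 libraries of K562 cells, 3 −Dox and 3 +Dox. The authors aligned and quantified the reads (per the labels' processing notes Salmon 1.10.2, STAR 2.7.11b and DESeq2, FastQC and MultiQC, build hg38), and the deposited values are, for each transcript, an estimated count that is not scaled and a TPM that Salmon scaled for effective length and library total. The deposited transcript length and effective length are in bases. Index, strand and bias settings are not given in the sources used here.

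Of 252045 transcripts, 251612 matched GENCODE 44 and were summed to 62252 genes; unmatched transcripts held 0.125 to 0.138% of counts. Estimated counts were rounded. The main test was edgeR 4.0.16 (R 4.3.3; TMM, glmQLFit, glmQLFTest) on the 21045 genes whose mean count exceeded 10, with Benjamini-Hochberg adjustment over all of them. Standard errors were derived from the log2 fold change and the F statistic. Transcripts were tested alike, and usage with diffSpliceDGE. Ratios and shares were tested by exact permutation. Levels are TPM, and overlap of groups was read from TMM-normalized counts. Alternatives were DESeq2 1.42.0, limma 3.58.1 on log2(TPM + 0.1) and log2(TPM + 1), other size factors, filters and a length offset, each library left out and a replicate block. The scripts were tested on simulated data.

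All 34 genes are accounted for, and those with an adjusted p under 0.05 are given in every library, as are called genes of a further list of 42; transcripts are named from 5% of their gene. LDHA-206 and the HK1 transcripts were chosen after their values were seen. The members and lists were chosen with earlier results of these data known. The dose and duration of Dox for these libraries are not given in the sources used here.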

Additional observations from a re-analysis of the deposited data

How the results depend on the processing

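Over 15 alternatives, 493 values of single genes gave 448 on the same side of the threshold, 20 newly past it, 14 no longer past it and 11 with another sign. Of the listed genes, 2 to 4 were called higher and 8 to 13 lower, not always the genes of the main result. Leaving out single libraries gave 8 to 13 lower and 3 to 4 higher, and 2288 to 3338 genes changed in all. The number of genes changed, 3333, became 1883 with the length offset, 1267 with limma on log2(TPM + 0.1) and 1218 on log2(TPM + 1). Genes past the fold limit, 308, became 515 with no filter, 174 with limma on log2(TPM + 0.1) and 63 on log2(TPM + 1). Transcripts changed, 176, became 584 at a mean count above 100 and 2 to 4 without single libraries; those of the listed genes, 1, became 4 and 0. Usage changes, 551, became 81 at a mean count above 100. The causes were not tested. Signs turned for values near 0, none called. With limma on log2(TPM + 0.1) and log2(TPM + 1), PFKL became −0.029 and −0.028 and TPI1 −0.021 and −0.021. Without single libraries ALDOC ran from −0.13 to 0.056 and TPI1 from −0.017 to 0.054. The SLC16A3 to SLC16A1 ratio, −0.20 on the log2 scale, was 0.17 from estimated counts and ran from −0.42 to 0.044 without single libraries, highest without −Dox replicate 3. Same-numbered libraries did not clearly deviate together (correlations 0.0075, −0.06 and −0.003, against −0.073 to 0.076 for other numbers). This check cannot exclude a pairing. With the replicate block 2490 genes passed, with 3 listed genes higher and 10 lower. With this block 0 transcripts, of which 0 of listed genes, and 428 usage changes passed, and PRPS2 did not (adjusted p = 0.0658). The PGM2 to PGM1 ratio could not be computed, as PGM1 is listed at 0 in a library. With 3 libraries per group, ratios and shares cannot reach an exact p below 0.1. Transcript tests have less depth behind each value than gene tests.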
